A study of Homo sapiens with 22 samples.

Results

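HT1080 cells given the KDAC6 inhibitor Tubastatin A were set against HT1080 cells whose KDAC6 carries a point mutation in 1 of its catalytic domains, in 6 of the 22 RNA-seq libraries of the series. HT1080 is an established human fibrosarcoma line. The 3 Tubastatin A libraries came from wild-type cells to which 1 µM of the compound was added for 2 days. The KDAC6H216A libraries came from untreated cells edited by CRISPR so that His216 of the first catalytic domain (CD1) is alanine, with 3 independent clones of the line pooled, and replicates 2, 3 and 4 entered the fit. Replicate 1 of KDAC6H216A was left out of the fit because it stands apart from the other replicates of its group, and its values are given beside those of the fit. The groups follow the labels, and leaving out replicate 1 was a choice made with the values known. The study calls the libraries of a group biological replicates, and how their cultures were kept apart is not given in the sources used here, so p-values measure the spread between these libraries. Values of the 4 libraries of untreated wild-type (WT) cells are given as levels, without a test. Both the compound and the allele differ between the groups, so a gene that differs may have moved in treated cells, in the mutant line or in both.

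KDAC6, encoded by HDAC6, is a mostly cytoplasmic lysine deacetylase with a pair of catalytic domains. It is best known for removing acetyl groups from alpha-tubulin, cortactin and the chaperone HSP90, and its zinc finger binds ubiquitin and brings misfolded protein to the aggresome. Tubastatin A is a hydroxamate that binds the zinc of the active site, and it is described as selective for KDAC6. A point mutation leaves the protein in place in every cell generation, whereas a compound acts for the time it is in the medium and can reach other enzymes.

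The mutated codon and its counterpart in the second domain are shown here because they define the line, as the plus strand of GRCh38 with the histidine codon in capitals. Both lie in coding exons of HDAC6, which extends over chrX:48801377-48824982 on the plus strand. The stretch around the His216 codon is chrX:48808033-48808078 in exon 9 with the codon at 48808046 to 48808048, and that around the His611 codon is chrX:48817335-48817397 in exon 20 with the codon at 48817365 to 48817367. His611 is the residue in the second catalytic domain (CD2) that the KDAC6H216A line leaves as in wild type.
HDAC6 His216 codon: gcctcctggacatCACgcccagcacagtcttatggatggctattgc
HDAC6 His611 codon: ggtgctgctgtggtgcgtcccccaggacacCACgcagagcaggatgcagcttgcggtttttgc

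The 2 groups were sequenced unequally. Total counts were 28394225 to 29862665 with Tubastatin A, 10948459 to 11737835 in KDAC6H216A replicates 2 to 4, 6837390 in replicate 1 and 5248953 to 8998474 in WT cells. Mitochondrial rRNA took 0.000564% to 0.00287% of the counts with Tubastatin A, 13.1% to 15.1% in KDAC6H216A replicates 2 to 4, 0.195% in replicate 1 and 20.8% to 23.9% in WT cells. The means of the fitted groups were 0.00148 ± 0.00123% and 13.97 ± 0.988% (SD, n = 3 each), with an exact permutation p of 0.1 (two-sided), the smallest that 3 against 3 allows. The 3 libraries of wild-type cells given the other compound, PCI34051, at 5 µM for 2 days resembled those with Tubastatin A. They had 0.000722% to 0.00541% mitochondrial rRNA. Untreated cells of the line KDAC8H143A, a point mutant of another deacetylase, had 0.00376% to 0.0259% with total counts of 11010719 to 17170473. In the comparison made here treatment came with deeper libraries of another composition, and the treatment and this library difference cannot be told apart. Levels are given as CPM, a gene's counts relative to its library's total after scaling with the TMM factors of the 6 libraries, and a log2 fold change is Tubastatin A minus KDAC6H216A.

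Most of the genes tested differed between the groups. At an adjusted p below 0.01 (edgeR quasi-likelihood test, Benjamini-Hochberg), 9324 of 16899 genes were called, which is 55.2%. Of these, 4479 were higher with Tubastatin A (26.5% of the genes tested) and 4845 were lower (28.7%). Most differences were small, with a median absolute log2 fold change of 0.63 among called genes (1.55-fold). An absolute log2 fold change of at least 1 was reached by 2652 called genes (15.7% of those tested), 1798 higher and 854 lower with Tubastatin A, and one of at least 3 by 274 higher and 65 lower. The groups did not overlap in 9277 of the called genes, against 69.1% of all genes tested. Called genes were 48.0% higher and 52.0% lower, a split that turned to 76.7% higher when only total counts were used for scaling and to 35.5% higher after a correction for GC content and gene length, while the median over all genes tested moved from 0.01 to 0.32 and -0.12 (log2). With KDAC6H216A replicate 1 in the fit, 4580 genes were called, 2686 higher and 1894 lower, and 4577 of them had been called in the same direction without it. In 72.1% of the called genes, the WT mean was nearer to the KDAC6H216A mean than to that with Tubastatin A on the log2 scale. Replicate 1 of KDAC6H216A was nearer to the other KDAC6H216A libraries in 62.7% of the called genes and in 74.7% of those with an absolute log2 fold change of at least 1.

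**Figure D1:**
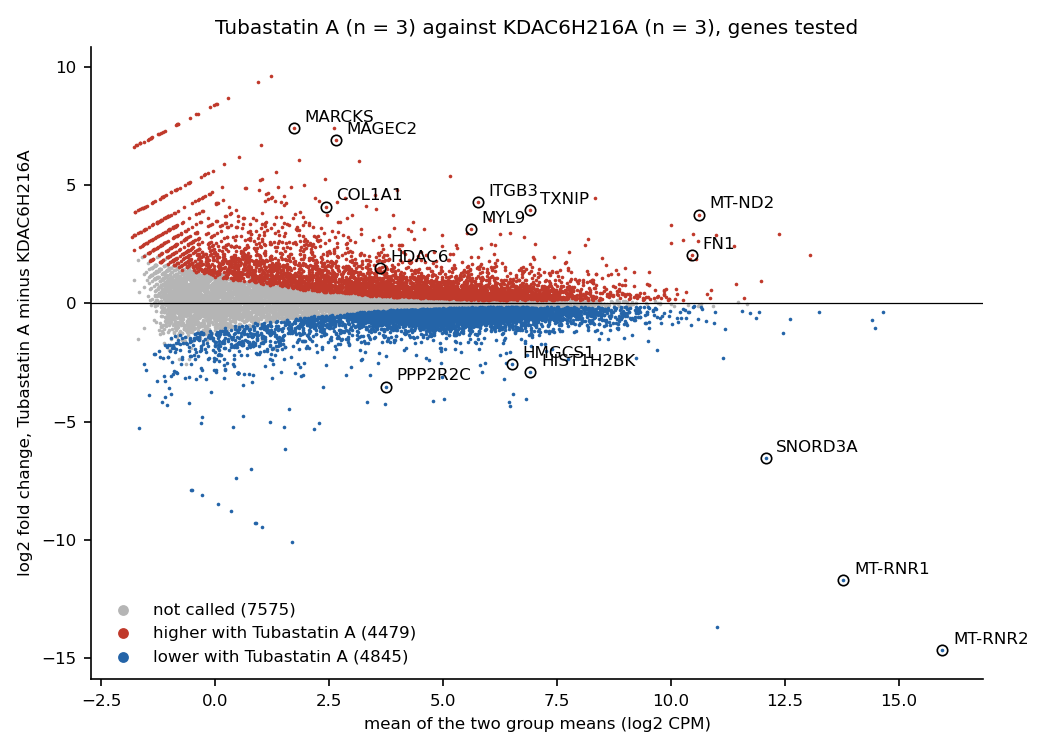
Each point is 1 of 16899 genes tested, with the mean of both group means (log2 CPM) on the horizontal axis and the log2 fold change of Tubastatin A (n = 3) minus KDAC6H216A (n = 3) on the vertical axis. The called genes, 4479 higher in red and 4845 lower in blue, spread on both sides of 0, and MT-RNR2 lies lowest of the circled genes at -14.67.

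HDAC6 itself was the deacetylase gene with the largest difference. Its level was 17.8, 18.2 and 18.1 CPM in the Tubastatin A libraries and 5.90, 5.75 and 7.41 CPM in KDAC6H216A replicates 2 to 4. No KDAC6H216A library reached any treated one, and replicate 1, at 6.94 CPM, lay among the other KDAC6H216A libraries. The log2 fold change was 1.51 ± 0.11 (SE), which is 2.84-fold (adjusted p = 1.95e-10, edgeR). Untreated WT cells held 10.8 to 17.9 CPM, a range that lies above all KDAC6H216A libraries and at its top overlaps with the treated ones. Gene counts do not show the mutated codon itself.

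HDAC4, a class IIa deacetylase that represses MEF2 target genes, was also higher with Tubastatin A. It stood at 34.9, 32.8 and 32.3 CPM with the compound and at 15.2, 14.04 and 18 CPM in KDAC6H216A, and the log2 fold change was 1.08 ± 0.08 (adjusted p = 7.27e-10). Both replicate 1, at 19.9 CPM, and WT cells, at 14.99 to 18.2 CPM, lay far nearer to KDAC6H216A. SIRT2, the other deacetylase known to act on alpha-tubulin, went the opposite way. It was at 16.01, 15.3 and 14.3 CPM with Tubastatin A, at 24.3, 25.9 and 26.5 CPM in KDAC6H216A and at 20.3 to 22.96 CPM in WT cells, a log2 fold change of -0.75 ± 0.08 (adjusted p = 4.88e-08). Replicate 1 of KDAC6H216A, at 15.97 CPM, lay among the treated libraries, and SIRT2 was no longer called with it in the fit.

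Of 17 deacetylase genes tested, 4 were higher and 4 lower with Tubastatin A, against 26.5% higher and 28.7% lower of all genes tested, with a median log2 fold change of -0.05 that became 0.26 when scaled by total counts (8 higher, 1 lower) and -0.20 after the correction for GC content and length (3 higher, 7 lower). HDAC6 and HDAC4 alone of the 8 were still called with replicate 1 in the fit. SIRT4 did not pass the filter on low counts. The other higher genes were SIRT5, a mitochondrial desuccinylase (0.49), and HDAC10, a polyamine deacetylase (0.29), whose sign turned under the correction for GC content and length and, in a blocked fit, with replicate 1. The other lower ones were SIRT1 (-0.41), HDAC7 (-0.39) and HDAC9 (-0.28, above 0 when scaled by total counts). None of the 4 class I genes was called by edgeR or by DESeq2, although 3 had an unadjusted edgeR p below 0.05, with HDAC1 at -0.14, HDAC2 at 0.13 (called lower, at -0.20, after the correction for GC content and length), HDAC3 at -0.15 and HDAC8, the gene of KDAC8, at -0.05 on the log2 scale. HDAC1 was at 89.7, 93.7 and 96.1 CPM with the compound and 93.9, 112 and 102 CPM in the mutant line, so the groups overlapped. HDAC5, HDAC11, SIRT3, SIRT6 and SIRT7 were not called either, with log2 fold changes between -0.20 and 0.44.

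**Figure D2:**
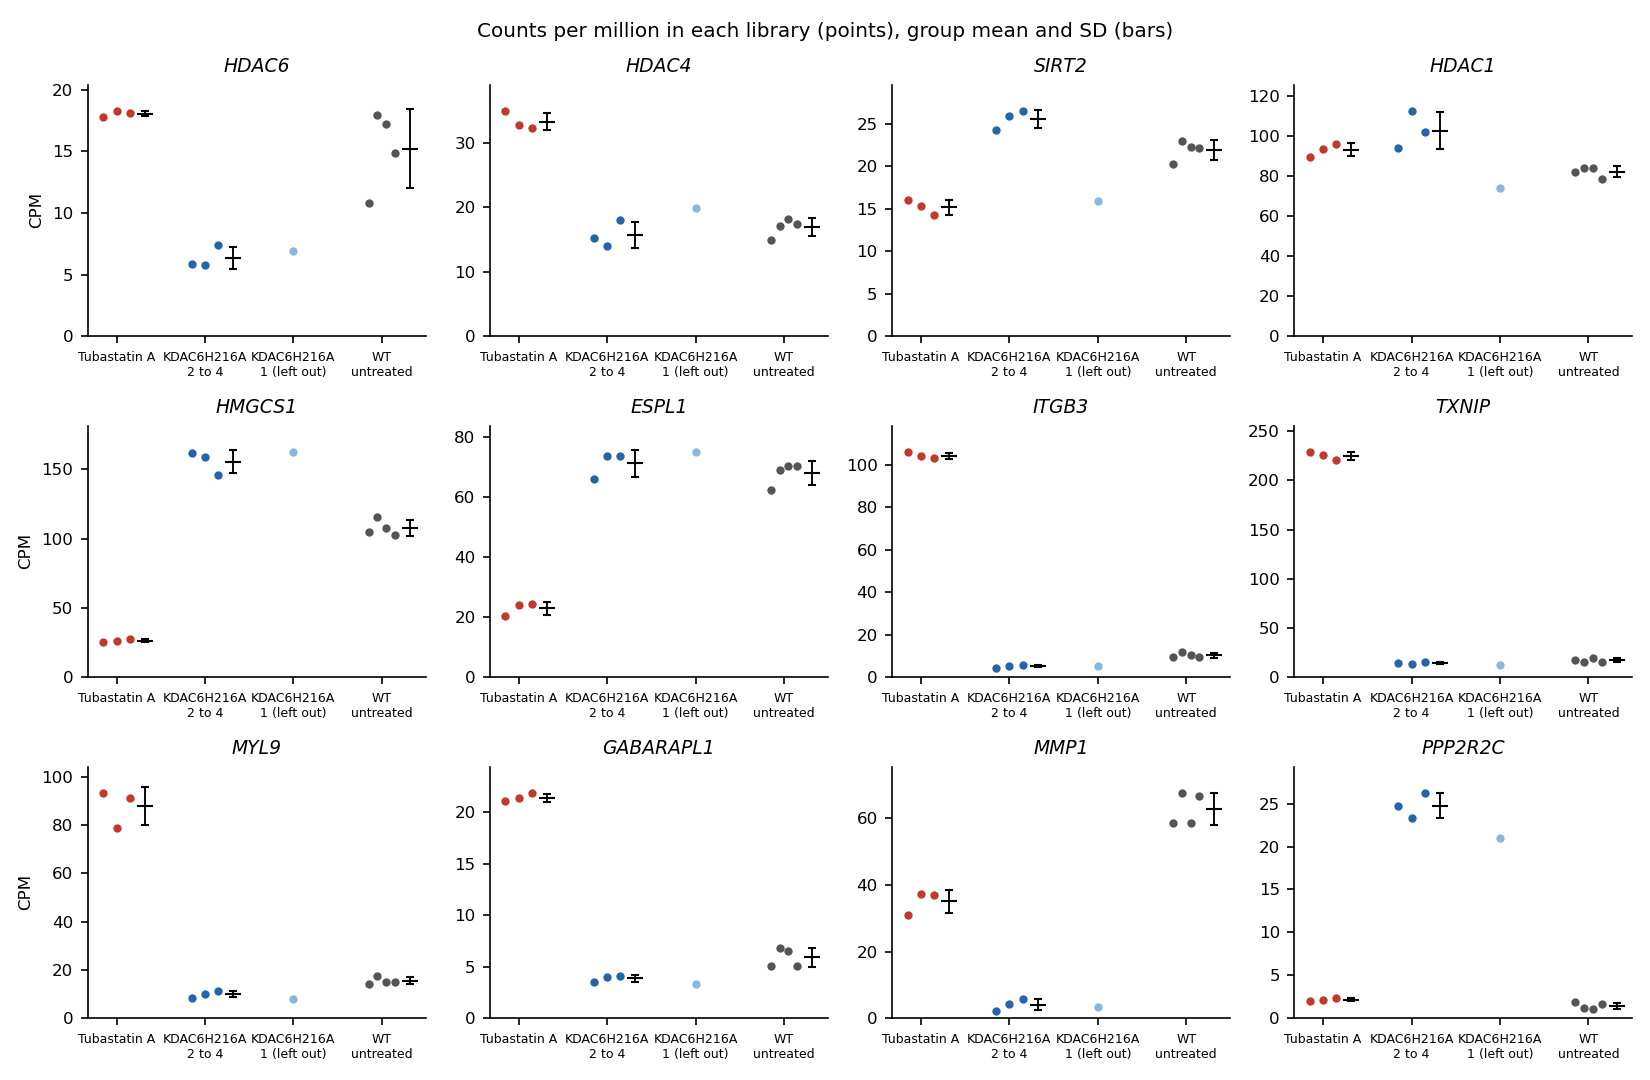
CPM values of 12 genes in each library (points) of 4 sets, Tubastatin A, KDAC6H216A replicates 2 to 4, the left-out replicate 1 and untreated WT cells, with the mean and SD as bars where there are at least 3 libraries. HDAC6 and MMP1 stand low in the KDAC6H216A libraries alone, PPP2R2C stands high in them alone, and ITGB3, TXNIP, MYL9 and GABARAPL1 stand high with Tubastatin A alone.

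Genes nearly silent in the mutant line led the rises. MARCKS, a substrate of protein kinase C that binds actin, had 634 counts over the Tubastatin A libraries and 1 over KDAC6H216A replicates 2 to 4, a ratio of 202 (95% exact interval 36.05 to 7974) that covers counting error only. WT cells held 0 to 0.464 CPM of MARCKS, so it was low in them too. MAGEC2, a cancer-testis antigen, was at 12.6, 12.2 and 12.6 CPM with Tubastatin A and had 1 count in each of the KDAC6H216A libraries of the fit, a ratio of 128 (95% exact interval 43.6 to 619.6). Its level in WT cells was 8.96 to 9.63 CPM and replicate 1 of KDAC6H216A had none, so of these sets the mutant libraries alone were at or near 0. The transcription factor gene SOX21, with a ratio of 71.9 (95% exact interval 24.5 to 349), was at 0 to 0.773 CPM in WT cells and so was low in them as well as in the mutant line. The same holds for DHRS3, a retinaldehyde reductase, at 30.7 ± 1.89 CPM with the compound against 1.10 ± 0.237 (SD, n = 3 each), and for the procollagen protease gene ADAMTS2, at 17.7 ± 1.41 against 0.264 ± 0.160 CPM. WT cells held 0.660 to 1.87 CPM of DHRS3 and 0 to 1.85 CPM of ADAMTS2. The Wnt receptor gene FZD3 was intermediate in WT cells, at 3.56 to 4.68 CPM, between 8.78 ± 0.413 CPM with the compound and 0.388 ± 0.250 CPM in the mutant line. TENM1, KCTD16, CDK15, RASA4 and CLSTN2, with log2 fold changes from 4.47 to 5.29, complete the largest rises of genes with at least 5 CPM outside the mitochondrial genome. Their means in WT cells were 2.29, 0.581, 0.459, 2.09 and 0.817 CPM in that order. In all, 320 called genes, 220 of them protein-coding, had at most 3 counts in each KDAC6H216A library of the fit. For 18 called genes, 3 of them protein-coding, this held in each treated library. A level of 3 counts was 0.283 to 0.311 CPM in those KDAC6H216A libraries and 0.0920 to 0.0943 CPM in the deeper treated ones. The 320 and the 18 can therefore not be set against each other. All of these genes passed the filter on low counts only through the group where they were high.

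The largest falls held genes that were raised in the mutant line and genes that were low with the compound. PPP2R2C, a regulatory subunit of protein phosphatase 2A, belongs to the first kind. It was at 24.8, 23.3 and 26.2 CPM in KDAC6H216A, at 1.99, 2.11 and 2.37 CPM with Tubastatin A and at 1.07 to 1.85 CPM in WT cells, so it was low in wild-type cells with and without the compound. RTN4RL1, a homologue of the Nogo receptor, had the same order, at 6.80 ± 1.11 CPM in the mutant line, 0.830 ± 0.255 with the compound and 0.464 to 1.72 in WT cells. The cytokine gene IL24 was at 5.95, 7.14 and 6.46 CPM with Tubastatin A, 51.5, 61.1 and 57.7 CPM in KDAC6H216A, 31.7 CPM in its replicate 1 and 26.1 to 28.8 CPM in WT cells, and its log2 fold change was -3.12 ± 0.08 (adjusted p = 5.51e-17). Low with the compound against both other sets were H2BC12, a histone gene, at 28.5 ± 1.16 against 214 ± 2.33 CPM, ITGB2, an integrin subunit of leukocytes, at 1.58 ± 0.113 against 13.03 ± 1.53 CPM, and APLN, the ligand of the apelin receptor, at 0.778 ± 0.0353 against 5.98 ± 0.678 CPM. WT cells held 160.3 to 199, 16.1 to 17.02 and 12.7 to 14.1 CPM of these 3 genes. FRMPD1 was at 0.976 ± 0.220 against 6.29 ± 0.939 CPM, with 23.5 CPM in replicate 1. EIF3CL, at -4.03, shares nearly all its sequence with EIF3C, and the read-through gene FMC1-LUC7L2, at -4.27, shares exons with its parts, so the split of reads between copies is uncertain for both, and EIF3CL, at 0.139 CPM in replicate 1 of KDAC6H216A, was not called with it.

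The genes of cholesterol synthesis formed the list with the lowest median. Of 26 genes tested, 24 were lower with Tubastatin A and 1 was higher, with a median log2 fold change of -1.74 against 0.01 over all genes tested, where 28.7% were lower. With replicate 1 in the fit the counts were 23 lower and 1 higher. The pathway builds cholesterol from acetyl-CoA, and its genes are switched on together by the SREBP factors when sterols are scarce in the endoplasmic reticulum. Among the enzymes, 18 of 20 were lower.

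HMGCS1, which makes HMG-CoA, was at 25.5, 25.97 and 27.7 CPM with Tubastatin A and 162, 159 and 146 CPM in KDAC6H216A. Its log2 fold change was -2.56 ± 0.05, or 5.88-fold lower with the compound (adjusted p = 8.06e-19). ACAT2, the cytosolic thiolase at the start of the pathway, was at 15.9, 15.9 and 16.1 against 91.4, 103 and 94.2 CPM (6.04-fold lower). The difference was of like size in LSS, which closes the sterol rings, at 24.9, 24.8 and 25.5 against 142.6, 141 and 145 CPM, and in IDI1 and MVD of the isoprenoid steps, at -2.53 and -2.502. WT cells stood between the groups in all of these, at 103 to 115 CPM for HMGCS1, 53.2 to 59.5 for ACAT2 and 100.3 to 111 for LSS. The WT mean lay between the group means in 23 of the 24 genes that were lower and nearer to KDAC6H216A in 20. Replicate 1 of KDAC6H216A held 162 CPM of HMGCS1 and 138 CPM of LSS, close to its group, and 62.3 CPM of ACAT2, below it. All 6 genes of regulation or uptake tested were lower. PMVK, a kinase of the mevalonate steps, was the 1 gene called higher, at 8.19, 9.24 and 9.74 against 4.87, 4.90 and 4.33 CPM, and the sterol reductase gene TM7SF2 was not called, at 3.93, 4.18 and 3.53 against 5.28, 5.84 and 5.10 CPM (log2 fold change -0.48, adjusted p = 0.016).

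**Figure D3:**
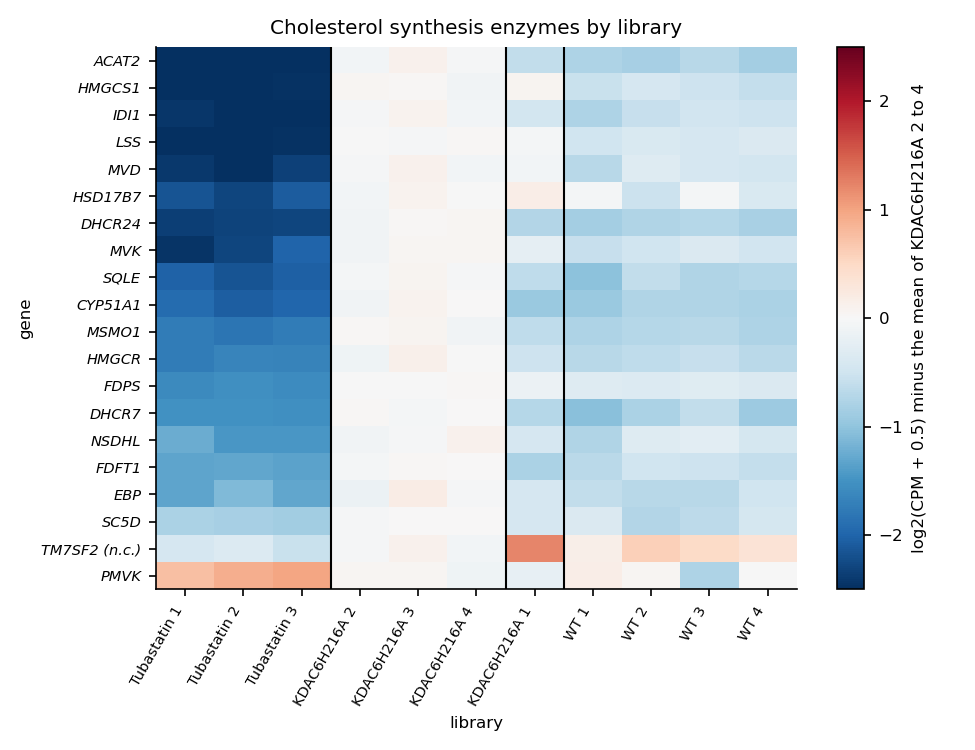
Each row is 1 of 20 cholesterol synthesis enzymes tested and each column a library, and the colour is log2(CPM + 0.5) minus the mean of KDAC6H216A replicates 2 to 4, with (n.c.) for the gene not called. The 3 Tubastatin A columns are below the mutant line in every row but PMVK, and the WT columns are pale, between the 2 groups in most rows.

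The sterol element TCACNCCAC (N is any base, both strands read) was looked for in the 250 bases before the start of each gene in RefSeq promoter windows of GRCh38.p14. It was found in 1 of 20 matched cholesterol promoters, against 0.875% of all 27305. That promoter belongs to SREBF2, the gene of SREBP2, and its stretch chr22:41832942-41833010 on the plus strand is shown with the element in capitals. The CCAAT box, read on both strands, was in 15 of these 20 promoters, 75%, and in 33% of all promoters.
SREBF2 promoter: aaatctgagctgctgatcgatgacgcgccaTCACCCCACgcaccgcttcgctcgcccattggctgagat

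Cell division genes were lower with Tubastatin A almost throughout, while 28.7% of all genes tested were lower and 26.5% higher. Of 53 mitosis genes tested 52 were lower and 1, the mitotic inhibitor kinase WEE1, was higher (0.45), with a median log2 fold change of -0.70, and with replicate 1 in the fit 33 were lower. Scaled by total counts alone the median was -0.39. In bulk libraries, fewer dividing cells and less of these transcripts per cell cannot be told apart. The WT mean was nearer to KDAC6H216A than to the treated mean in 40 of the 52 genes, and replicate 1 of KDAC6H216A was nearer to its own group in 27. ESPL1, the separase that cuts cohesin at anaphase, had the largest fall, at 20.4, 24.1 and 24.4 CPM with Tubastatin A against 66.1, 73.8 and 73.7 in KDAC6H216A. Its log2 fold change was -1.63 ± 0.07 (adjusted p = 6.16e-14), and WT cells, at 62.3 to 70.5 CPM, overlapped with the mutant line. The ubiquitin-conjugating enzyme UBE2C, the kinetochore genes SPC24 and KNL1 and the spindle motor gene CENPE fell by 2.38, 2.36, 2.29 and 2.24 fold in that order. CENPE was at 83.3 ± 1.29 CPM with the compound and 187 ± 10.98 in the mutant line, with 190.3 to 209 CPM in WT cells and 203 in replicate 1. All 33 spindle and kinetochore genes and all 6 anaphase genes tested were lower.

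Replication genes showed the same direction with more exceptions. For these and the histone genes below, the shares over all genes tested were 28.7% lower and 26.5% higher. Of 45 replication genes tested, 38 were lower, none was higher by edgeR or DESeq2 (1 at an unadjusted edgeR p below 0.05), and 7 were not called. The median of the 45 was -0.61. With replicate 1 in the fit, 20 were lower. Scaled by total counts alone, 26 were lower and 6 higher. The origin-binding gene ORC1 was at 11.1, 11.9 and 10.9 CPM with Tubastatin A and 33.1, 37.2 and 34.3 CPM in KDAC6H216A, a 3.08-fold fall (adjusted p = 3.41e-13). The flap nuclease FEN1 was at 67.9 ± 2.01 against 181 ± 7.10 CPM and the replication initiation factor MCM10 at 31.2 ± 1.47 against 76.4 ± 3.28 CPM. RRM2, the small subunit of ribonucleotide reductase, overlapped between the groups, at 95.4, 94.7 and 101 against 98.9, 106 and 95.7 CPM. The replication-dependent histone genes, whose transcripts are made in S phase and mostly lack poly(A) tails, had 23 of 27 tested lower and none higher by edgeR (0 at an unadjusted p below 0.05) or DESeq2, with a median of -0.76, and 10 were lower with replicate 1. Under total-count scaling 17 were lower and 2 higher, and after the correction for GC content and length 15 and 2. Linker histone H1-4 was at 211, 189 and 213 against 587, 570.5 and 591 CPM and H2BC14 at 13.6, 12.5 and 13.7 against 37.2, 38.1 and 35.4 CPM.

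Many mitosis promoters shared a pair of short motifs. The letters TTTGAA, which are the core of the cell cycle genes homology region (CHR) bound by the MuvB complex, were found on either strand in 24 of 46 matched mitosis promoters, 52.2%, against 13.6% of all promoters. CCAAT was in 76.1% of them, and both motifs were in 43.5% against 4.85% of all promoters. Of the replication promoters, 2.7% held TTTGAA. The 4 mitosis genes with the largest falls among those whose matches all lie within a stretch of 150 bases are shown on the gene's strand, with TTTGAA and CCAAT or their reverse complements in capitals. In CDCA8 a pair of matches overlap and run into each other. Each stretch runs from 12 bases before the first match to 12 after the last, where the window holds them. The stretches are chr12:53268239-53268285 (ESPL1), chr11:62123892-62124010 (INCENP), chr1:37692389-37692514 (CDCA8) and chrX:70290034-70290087 (KIF4A), all on the plus strand of GRCh38.p14.
ESPL1 promoter: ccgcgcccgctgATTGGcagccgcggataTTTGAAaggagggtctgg
INCENP promoter: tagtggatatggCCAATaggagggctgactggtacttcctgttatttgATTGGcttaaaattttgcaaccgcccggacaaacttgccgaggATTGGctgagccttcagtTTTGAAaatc
CDCA8 promoter: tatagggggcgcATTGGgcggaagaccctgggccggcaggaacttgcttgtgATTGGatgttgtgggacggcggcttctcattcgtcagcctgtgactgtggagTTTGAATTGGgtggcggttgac
KIF4A promoter: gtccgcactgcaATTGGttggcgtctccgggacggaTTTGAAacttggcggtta

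Matrix and adhesion genes were mostly higher with Tubastatin A. Of 71 tested, 49 were higher, 10 lower and 12 not called, with a median log2 fold change of 0.60, where 26.5% of all genes tested were higher. With replicate 1 in the fit, 41 were higher and 6 lower. Integrins had 11 of 15 higher, matrix glycoproteins 14 of 18, collagens 11 of 18 and proteases 8 of 14. ITGB3, the beta subunit of the vitronectin receptor, was at 106, 104 and 103 CPM with Tubastatin A and 4.56, 5.47 and 5.87 in KDAC6H216A, and WT cells held 9.43 to 11.9 CPM. Its log2 fold change was 4.29 ± 0.07 (19.6-fold, adjusted p = 7.61e-20). ITGA11, which pairs with integrin beta 1 to bind collagen, was at 126, 113 and 124 against 12.1, 8.01 and 11.3 CPM. Fibronectin (FN1) was already abundant in the mutant line and rose from 548 ± 28.6 to 2287 ± 157 CPM, with WT cells at 717 to 844 CPM.

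The collagen I chains were low in all libraries. COL1A1 was at 9.20, 10.8 and 10.5 CPM with Tubastatin A, 0.518, 0.943 and 0.289 in KDAC6H216A and 2.94 to 3.92 in WT cells, and COL1A2, with 365 against 4 counts, had a ratio of 29.01 (95% exact interval 11.2 to 107). The interstitial collagenase MMP1 separated the WT cells from both groups. It was at 30.9, 37.2 and 36.98 CPM with the compound, 2.28, 4.34 and 5.68 CPM in the mutant line and 3.47 CPM in replicate 1, but at 58.6 to 67.4 CPM in untreated WT cells. MMP1 was thus lower in treated than in untreated wild-type libraries, which was not tested here, and lowest in the mutant line. The plasminogen activator gene PLAU and COL4A2 of basement membranes overlapped between the groups, at -0.03 and -0.01 on the log2 scale.

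Genes of the actin cytoskeleton moved both ways. Of 31 tested, 16 were higher and 10 lower, against 26.5% and 28.7% of all genes tested, with a median of 0.17. With replicate 1 in the fit, 10 were higher and 4 lower. After the correction for GC content and length 13 were higher and 12 lower. MYL9, the regulatory light chain of nonmuscle and smooth muscle myosin, was at 93.1, 78.7 and 91.4 CPM with Tubastatin A against 8.60, 10.1 and 11.3 in KDAC6H216A. That is a log2 fold change of 3.13 ± 0.09 (adjusted p = 1.20e-16), and WT cells, at 14.3 to 17.7 CPM, were nearer to the mutant line. The actin-bundling gene TAGLN rose 6.67-fold, smooth muscle actin ACTA2 2.96-fold and the filament-severing GSN 2.90-fold. Cytoplasmic ACTG1, by contrast, was at 2892 ± 39.8 and 2773 ± 44.7 CPM and was not called (adjusted p = 0.155).

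Genes of tubulin and its modification moved both ways. Of 39 tested, 9 were higher and 18 lower, against 26.5% and 28.7% of all genes tested. The median of -0.12 turned to 0.18 when only total counts were used, and 5 were higher and 3 lower with replicate 1 in the fit. Of 8 beta-tubulin genes tested 4 were lower and 1 higher, and their log2 fold changes ran from -0.90 to 4.495. The class III beta-tubulin TUBB3 was at 80.3, 81.1 and 84.2 CPM with Tubastatin A and 134, 164 and 159.9 in KDAC6H216A (-0.90 log2), and WT cells, at 115 to 138 CPM, lay nearer to the mutant line. Replicate 1, at 91.1 CPM, lay nearer to the treated libraries, and TUBB3 was not called with it. ATAT1, the acetyltransferase that adds the mark KDAC6 removes from alpha-tubulin, was at 7.03, 6.13 and 7.53 against 4.87, 3.86 and 3.95 CPM, a log2 fold change of 0.71 ± 0.16 (adjusted p = 6.55e-04). It was at 5.48 to 7.88 CPM in WT cells, overlapping with the treated ones, and at 8.33 CPM in replicate 1, above them, and its call was lost with replicate 1. VASH1, a tubulin carboxypeptidase, was higher (0.94) while its partner SVBP was lower (-1.23), the latter at under 4 CPM in all libraries of the fit and lost with replicate 1. TTLL1, a tubulin polyglutamylase subunit, was higher at 1.52. The microtubule-associated MAP4 was not called, at 278 ± 8.41 and 293 ± 6.39 CPM.

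Of 23 genes of KDAC6 substrates and partners tested, 15 were lower and 5 higher, against 28.7% and 26.5% of all genes tested. The median was -0.25, or 0.06 when scaled by total counts, and with replicate 1 in the fit 5 were lower and 4 higher. SMAD7, an inhibitor of TGF-beta signalling, had the largest rise, at 22.6, 20.03 and 21.4 CPM with Tubastatin A against 7.35, 8.77 and 8.57, and WT cells held 8.995 to 10.98 CPM. BIRC5 (survivin), which also counts among the mitosis genes, fell 2.10-fold. DYNC1H1, the heavy chain of the dynein motor that carries cargo to the aggresome, was at 1425 ± 24.8 against 2528 ± 72.5 CPM and the stress granule gene G3BP1 at 377 ± 10.1 against 588 ± 4.91 CPM.

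The heat shock list, which holds chaperones and 2 transcription factor genes, had 11 of 23 tested lower and 5 higher, against 28.7% and 26.5% of all genes tested. Its median was -0.16 (0.14 scaled by total counts), and 3 were lower and 3 higher with replicate 1. The constitutive HSPA8 was at 1508, 1468 and 1506 CPM with Tubastatin A and 2938, 3327 and 3196 in KDAC6H216A, a 2.11-fold fall (adjusted p = 3.79e-14). The small heat shock gene HSPB8 went up from 0.311, 0.566 and 0.577 CPM in the mutant line to 6.07, 6.10 and 6.03 CPM with the compound, and DNAJB4 rose 3.47-fold. Mitochondrial HSPD1 was not called. In autophagy, 12 of 28 were higher and 3 lower, against 26.5% and 28.7% of all genes tested. The median of 0.06 fell below 0 (-0.05) after the correction for GC content and length. Of the 21 genes of the autophagy machinery in this list, 7 were higher and 3 lower. GABARAPL1 was at 21.05, 21.4 and 21.8 against 3.52, 3.96 and 4.14 CPM, a log2 fold change of 2.46 ± 0.11 (adjusted p = 1.49e-13). MAP1LC3B rose 1.72-fold and GABARAP 1.66-fold, and 5 of 7 autophagy receptor genes were higher. With replicate 1 in the fit, 9 autophagy genes were higher and 2 lower.

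**Figure D4:**
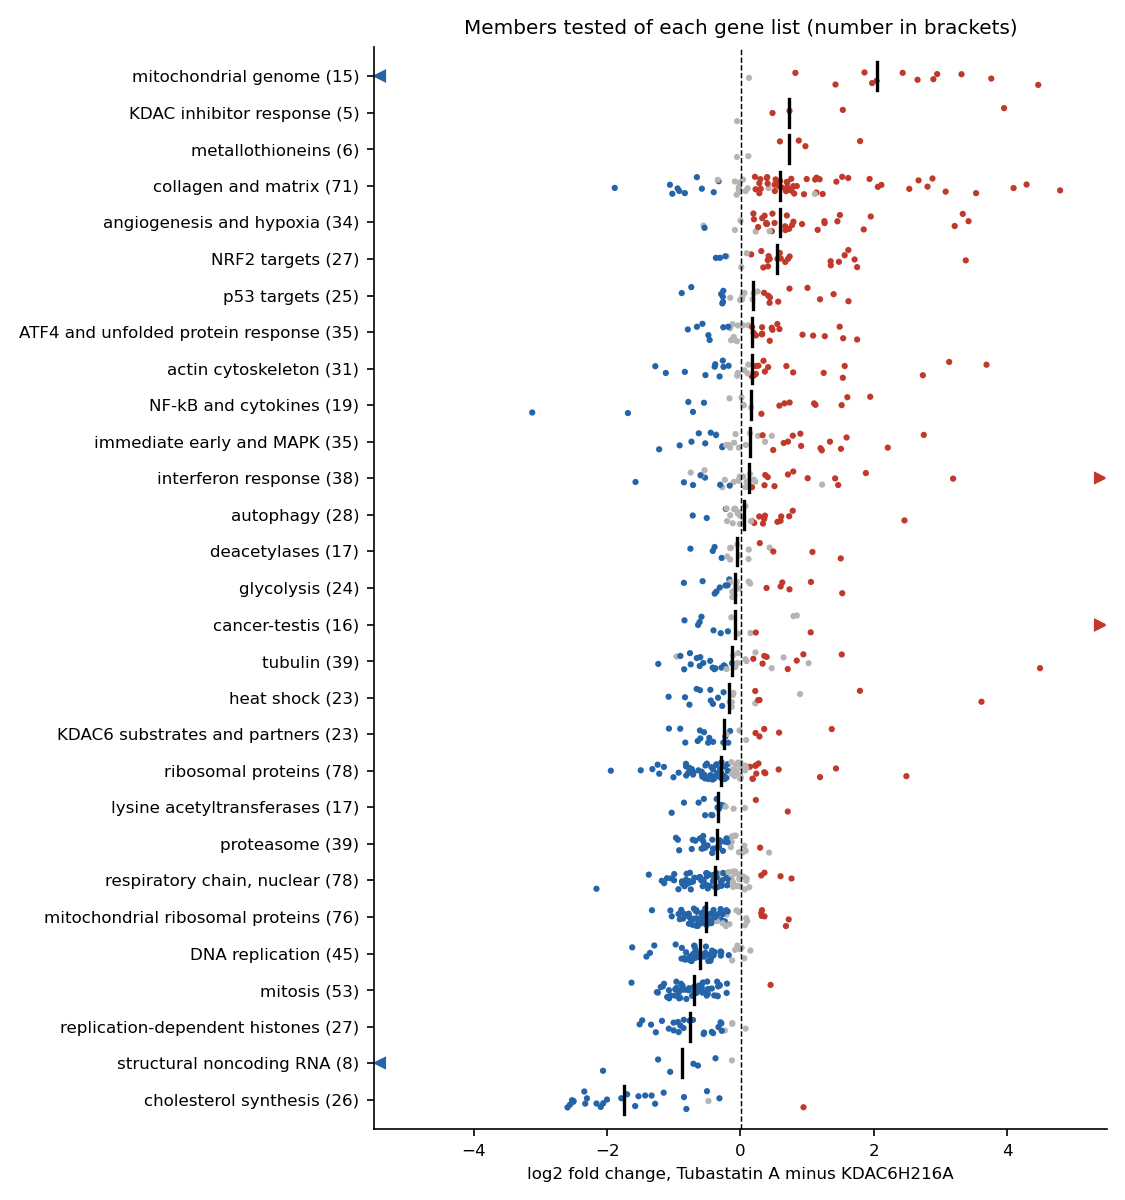
Each point is a gene tested of the list named at the left (number tested in brackets), placed by its log2 fold change of Tubastatin A minus KDAC6H216A, red where called higher, blue where called lower and grey where not called. Black bars are list medians, the dashed line is the median of all genes, and arrowheads are genes beyond the axis. Cholesterol synthesis has the lowest median at -1.74 and the mitochondrial genome the highest at 2.04.

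Genes that respond to hypoxia were higher with Tubastatin A. Of 34 genes of angiogenesis and hypoxia tested, 28 were higher and 1 lower, against 26.5% and 28.7% of all genes tested. The median of the list was 0.59, and with replicate 1 in the fit 21 were higher and 1 lower. The part of the list that responds to hypoxia had 13 of 13 tested higher. CA9, a carbonic anhydrase of the cell surface, was at 28.7, 26.1 and 27.98 CPM with Tubastatin A, 2.49, 3.96 and 2.41 in KDAC6H216A and 0.660 to 1.87 in WT cells. Its log2 fold change was 3.21 ± 0.13 (adjusted p = 2.93e-14). EGLN3, a prolyl hydroxylase that marks HIF for destruction, had 164 against 5 counts, a ratio of 10.4 (95% exact interval 4.38 to 32.5), and was under 3 CPM everywhere. The letters ACGTG, the core bound by HIF, were found on either strand in 7 of 29 matched promoters of this list, 24.1%, against 18.7% of all promoters. VEGFB was not called, at 28.5 ± 1.80 and 28.5 ± 3.11 CPM. Of 24 glycolysis genes 6 were higher and 8 lower, against 26.5% and 28.7% of all genes tested, with a median of -0.08 (0.23 scaled by total counts). With replicate 1 they were 6 higher and 1 lower. ENO2 rose from 34.3 ± 2.07 to 99.05 ± 1.81 CPM and PDK1, a kinase of pyruvate dehydrogenase, from 46.9 ± 1.85 to 97.6 ± 1.81 CPM. LDHA rose 1.55-fold, HK2 fell 1.80-fold, and PKM was not called.

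Transcripts of the mitochondrial genome split by kind. Of 13 mRNAs tested, 12 were higher with Tubastatin A and both rRNAs were lower, against 26.5% higher and 28.7% lower of all genes tested. The mitochondrial mRNAs took 3.83% to 4.72% of counts with Tubastatin A, 0.699% to 0.857% in KDAC6H216A and 1.20% in its replicate 1. In 2 other groups whose libraries held little mitochondrial rRNA, they took 6.43% to 14.8% (untreated KDAC8H143A) and 2.57% to 4.19% (PCI34051). Replicate 4 of the untreated line KDAC6H611A, mutated at His611, had 0.173% mitochondrial rRNA, and the mitochondrial mRNAs took 0.680% of its counts. MT-ND2, a complex I subunit, was at 3381, 2945 and 2457 CPM with Tubastatin A and 241, 189 and 217 in KDAC6H216A, a log2 fold change of 3.76 ± 0.09 (adjusted p = 1.38e-17), and at 308 to 413 CPM in WT cells. MT-ND6, the subunit encoded on the light strand, had the largest rise, at 704, 609.9 and 538 against 32.9, 24.5 and 26.5 CPM (22.1-fold). MT-ATP8 overlapped, at 31.02, 25.4 and 18.1 against 25.4, 20.7 and 22.2 CPM. The rRNAs set the library compositions given above. MT-RNR2 was at 3.87, 8.18 and 2.59 CPM with the compound and 143759, 119930.0 and 118849 CPM in the mutant line, and it was at 200387 to 238971 CPM in WT cells and 1397 CPM in replicate 1 of KDAC6H216A. MT-RNR1 was at 5.40, 17.5 and 2.44 against 27073, 25519.7 and 32282 CPM. Replicate 1, which also had little mitochondrial rRNA, held 226 CPM of MT-ND2 and 25.1 CPM of MT-ND6, both among the other KDAC6H216A libraries.

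**Figure D5:**
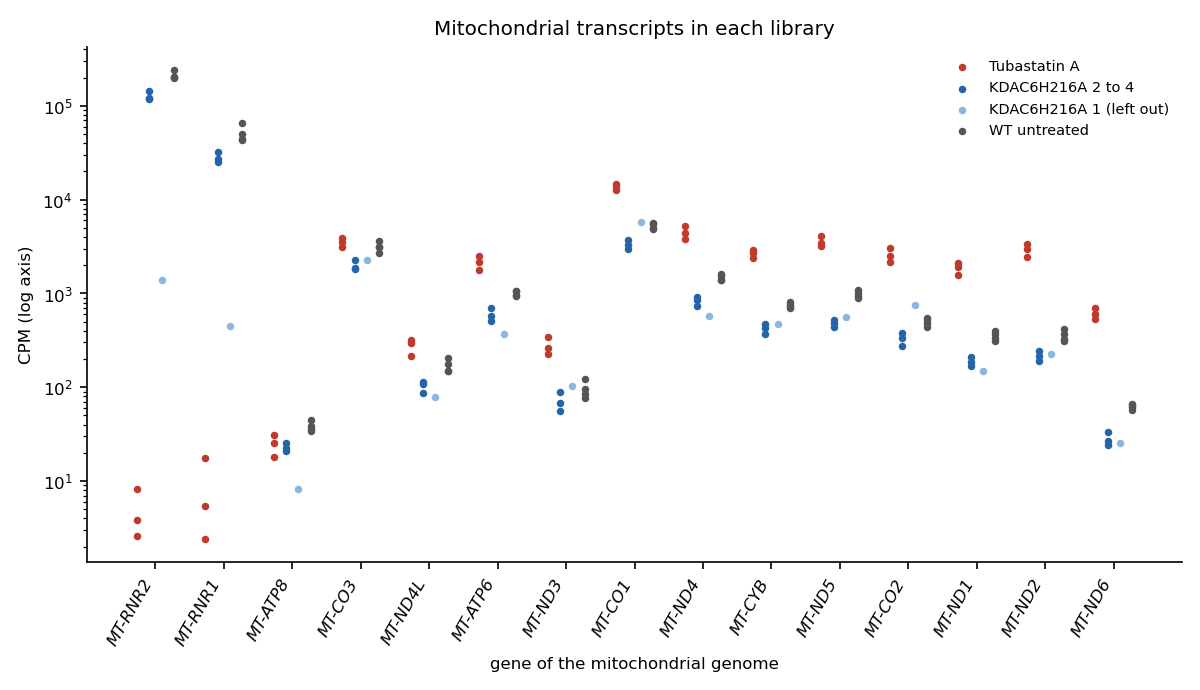
CPM (log axis) of the 15 mitochondrial transcripts tested, ordered by log2 fold change, with a point for each library. The 3 Tubastatin A libraries (red) are below 20 CPM for both rRNAs and lie above all KDAC6H216A and WT libraries for MT-ND1, MT-ND2 and MT-ND6.

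Nuclear genes of the respiratory chain went the other way, with 53 of 78 lower and 4 higher and a median of -0.38 (-0.07 scaled by total counts, where 29 were lower and 18 higher). Replicate 1 reduced this to 12 lower and 4 higher. For this list and the others of this paragraph, the shares over all genes tested were 28.7% lower and 26.5% higher. ATP5ME, a small subunit of ATP synthase, was at 8.34, 8.11 and 6.96 against 37.9, 32.99 and 33.97 CPM and NDUFS6 of complex I at 15.4, 14.6 and 13.3 against 36.9, 39.1 and 36.3 CPM, while COX7C of complex IV overlapped. Mitochondrial ribosomal protein genes had 60 of 76 lower and 6 higher, with a median of -0.52, and 18 and 4 with replicate 1. Under total-count scaling 38 were lower and 10 higher, with a median of -0.21. MRPL33 was the lowest of them, at 21.5 ± 3.38 against 53.9 ± 2.86 CPM. Cytoplasmic ribosomal protein genes had 48 of 78 lower and 13 higher and a median of -0.29, which became 0.02 under total-count scaling, and 9 were lower and 6 higher with replicate 1. Individual members diverged, with RPS27 at 81.3, 61.9 and 65.8 against 253, 286 and 266 CPM, RPS16 at 487, 449 and 475 against 101, 61.9 and 88.2 CPM and RPL28 2.70-fold higher. Such genes have many processed pseudogenes, and how reads were shared among these copies is uncertain. RPL13A was not called. Proteasome genes had 27 of 39 lower and 1 higher, with a median of -0.35 (-0.04 scaled by total counts), 5 and 1 with replicate 1, and the ubiquitin receptor gene ADRM1 fell 1.92-fold.

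The lists of NRF2 targets, ATF4 and the unfolded protein response, p53 targets and metallothioneins had more members higher than lower with Tubastatin A. Over all genes tested 26.5% were higher and 28.7% lower. Of 27 NRF2 targets and regulators tested, which serve glutathione and NADPH supply, 21 were higher and 3 lower (median 0.55, and 17 and 0 with replicate 1). The cystine carrier SLC7A11, a target of both NRF2 and ATF4, was at 310.1, 327 and 322 CPM with Tubastatin A and 94.7, 97.4 and 92.9 in KDAC6H216A, with 105 to 123 in WT cells. That is a log2 fold change of 1.75 ± 0.05 (adjusted p = 9.92e-17). Glutathione reductase GSR overlapped. Of 35 genes of ATF4 and the unfolded protein response, 18 were higher and 7 lower (median 0.18), and 11 and 1 with replicate 1. STC2 rose 2.81-fold and the endoplasmic reticulum chaperone HSPA5 from 268 ± 9.72 to 646 ± 9.52 CPM. Of 25 p53 targets 10 were higher and 7 lower, and 9 and 2 with replicate 1. GDF15, a stress-induced cytokine, was at 607, 561 and 569 against 175, 181 and 208 CPM and RRM2B rose 2.64-fold, while the death receptor gene TNFRSF10B was not called. Of 6 metallothionein and zinc response genes tested 4 were higher, among them MT1X (3.47-fold) and MT2A (1.97-fold).

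A short list of genes that respond to many deacetylase inhibitors had 4 of 5 higher, also with replicate 1. For this list and the acetyltransferase list below, the shares over all genes tested were 26.5% higher and 28.7% lower. TXNIP, which binds thioredoxin and restrains glucose uptake, was at 228, 226 and 221 CPM with Tubastatin A and 14.4, 13.2 and 15.9 CPM in KDAC6H216A, a log2 fold change of 3.96 ± 0.07 (15.5-fold, adjusted p = 7.61e-20). WT cells, at 15.5 to 19.8 CPM, and replicate 1, at 12.9 CPM, were near the mutant line. The cell cycle inhibitor CDKN1A was at 202 ± 7.86 CPM with the compound and 121 ± 3.77 CPM in the mutant line, and CLU overlapped. WT cells, at 137 to 165 CPM of CDKN1A, lay between the groups, and replicate 1 was at 82.8 CPM. Acetyltransferase genes had 12 of 17 lower and 2 higher (median -0.34, 5 and 0 with replicate 1), which became 5 lower and 4 higher with a median of -0.03 when scaled by total counts. ESCO2, which acetylates cohesin, was 2.04-fold lower and KAT5 1.80-fold lower.

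Immediate early and MAPK feedback genes had 14 of 35 higher and 9 lower, and 14 and 5 with replicate 1. For this list and those that follow here, the shares over all genes tested were 26.5% higher and 28.7% lower. The nuclear receptor NR4A1 rose from 2.28, 1.70 and 2.02 to 9.60, 7.96 and 10.1 CPM, KLF10 3.02-fold, the YAP target CCN1 from 264 ± 24.3 to 751 ± 9.12 CPM and the phosphatase DUSP1 2.54-fold, and JUN was not called. Interferon genes had 13 of 38 higher and 7 lower with a median of 0.12 that fell below 0 (-0.04) after the correction for GC content and length, and 10 and 4 with replicate 1. The membrane protein gene IFITM1 was at 8.99, 9.43 and 8.56 against 1.55, 0.848 and 0.577 CPM and the nuclease ISG20 at 7.09, 6.70 and 6.96 against 22.5, 19.8 and 19.6 CPM, and STAT2 overlapped. Cytokine and NF-kB genes had 9 of 19 higher and 5 lower, and 9 and 3 with replicate 1. Next to IL24, IL6 was higher at 1.90, 2.20 and 1.999 against 0.8285, 0.283 and 0.481 CPM and CCL5 lower at 1.01, 1.35 and 1.41 against 4.97, 2.83 and 4.43 CPM, both low throughout. Among 16 cancer-testis genes tested, 4 were higher and 7 lower, against 26.5% and 28.7% of all genes tested, with a median of -0.08 (0.22 scaled by total counts), and 3 and 0 with replicate 1. MAGED1, which is widely expressed, rose from 57.8 ± 1.57 to 120.1 ± 4.84 CPM.

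Structural noncoding RNA was lower in the treated libraries, as the mitochondrial rRNA was, while 28.7% of all genes tested were lower and 26.5% higher. Of 8 genes tested, 7 were lower and none higher by edgeR (0 at an unadjusted p below 0.05) or DESeq2, with a median of -0.88, but 3 were lower and 2 higher after the correction for GC content and length, and 4 were lower with replicate 1. SNORD3A, the U3 small nucleolar RNA, was at 126, 71.2 and 80.1 CPM with Tubastatin A, 11015, 7489 and 7228 CPM in KDAC6H216A, 15261 CPM in replicate 1 and 8679 to 15063 CPM in WT cells. RN7SL2 of the signal recognition particle fell from 30634 ± 3524 to 14759 ± 1742 CPM. The part of library composition in this difference was not tested.

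The summed mesenchymal markers overlapped between the groups. The 10 mesenchymal markers summed to 9481 to 9929 CPM with Tubastatin A and 9440 to 10164 CPM in KDAC6H216A. Of the 10, 2 were called higher and 4 lower, against 26.5% and 28.7% of all genes tested. Single members ran from -1.80 to 2.06 (FN1) on the log2 scale, so like sums hold changes in opposite directions. VIM was at 3418 ± 39.4 and 4408 ± 161 CPM, no longer called with replicate 1, and CD44 at 1299 ± 16.8 and 1344 ± 26.8 CPM, the latter not called. The epithelial markers EPCAM and CDH1 had at most 3 counts in each library of the fit, and the other epithelial genes of the list summed with them to 371 to 389 CPM against 294 to 304 CPM, most of it KRT8 (229 ± 7.04 against 151 ± 4.70 CPM). The 5 leukocyte markers together stayed at or under 0.189 CPM. Of the endothelial markers only TIE1 was tested, at 91.4 ± 0.542 against 140.0 ± 4.72 CPM, and it was not called with replicate 1.

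The calls were spread over the genome. Across chromosomes 1 to 22 and X, the share of genes called ran from 49.8% on chromosome 13 to 62.6% on chromosome 21, and the median log2 fold change from -0.16 on chromosome 22 to 0.18 on chromosome 13. Around HDAC6, neighbours within 250 kb moved in both directions. SUV39H1, a histone methyltransferase, lies before it and had a log2 fold change of -1.39, and PQBP1 after it had -0.60, while PRAF2 further on was at 1.74 and the genes GRIPAP1 and TFE3 were not called.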

How the data were processed

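RNA of HT1080 cells was depleted of rRNA and sequenced with paired ends. Per the labels, reads were trimmed (Trimmomatic 0.39), aligned to GRCh38 (Bowtie2 2.4.5) and counted with RSEM 1.3.3. The deposited table holds expected counts per gene and library, not scaled for depth or length. The gene annotation release used for counting is not given in the sources used here. Expected counts were rounded here to whole numbers.

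Tubastatin A (n = 3) and KDAC6H216A (n = 3, replicates 2 to 4) were fitted alone with edgeR 4.0.16 in R 4.3.3 (TMM, filterByExpr by group, glmQLFit, glmQLFTest), and p-values adjusted by Benjamini-Hochberg were called below 0.01. The standard error is the log2 fold change over the square root of F. Other libraries were scaled to the same TMM reference. Genes were typed and placed by GENCODE 44, which matched 56558 of 60675 identifiers. Shares of counts were compared with the exact permutation test, and ratios with at most 3 counts in a library carry an exact 95% binomial interval for counting error. Alternatives included DESeq2 1.42.0 and mgcv 1.9.3 for GC content and length.

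The members and the 33 gene lists were chosen with earlier results of these data known. Genes named were 18 deacetylase genes, the 12 largest differences in each direction (protein-coding, called, at least 5 CPM in the higher group, groups not overlapping, 1 identifier per symbol), up to 5 called and 3 uncalled members per list, and the mitochondrial rRNAs. The text describes genes from these. INCENP, CDCA8 and KIF4A were named for their promoters, and PMVK, WEE1, SREBF2 and the neighbours of HDAC6 for single statements, after their values were seen. Libraries of other groups served only for the levels and rRNA shares given and for the alternative with all groups. Some named members of the lists are not reported here.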

Additional observations from a re-analysis of the deposited data

Results flagged for a closer look

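Among the 4 libraries of a group, a value was singled out where the gap between 1 end library and its nearest neighbour exceeded Dixon's 95% critical share of the group's whole range. Chance does this in about 1 of 20 groups, and 280 were checked, 140 each in KDAC6H216A and WT. In KDAC6H216A 25 exceeded it, 21 of them with replicate 1 as the library apart, and in WT 8 did. Replicate 1 had already been left out, and most of the genes checked were chosen from the fit without it. The rate by chance does not hold for genes chosen in that way, so the 21 are no separate test of whether replicate 1 stands apart.

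Replicate 1 of KDAC6H216A stood apart in its total count (gap over range 0.839) and its mitochondrial rRNA share (0.871). It was the low library in ACTG1 (0.916), CD44 (0.853), DUSP1 (0.919), G3BP1 (0.894), GSR (0.8294), H2BC12 (0.941), H2BC14 (0.839), HDAC11 (0.905), MAGEC2 (0.910), MAGED1 (0.852), PLAU (0.843), RPL13A (0.838) and UBE2C (0.865). It was the high library in FRMPD1 (0.900), HDAC10 (0.841), PDK1 (0.848), SIRT5 (0.830), SIRT7 (0.872) and TM7SF2 (0.908). Other KDAC6H216A libraries stood apart in CA9 (0.848, replicate 3), CLSTN2 (0.835, replicate 2), ESPL1 (0.871, replicate 2) and KCTD16 (0.846, replicate 4). MAGEC2 and KCTD16 had at most 1 and 3 counts in any KDAC6H216A library of the fit, so their gaps rest on single counts. In WT cells replicate 1 stood apart in CENPE (0.896), ESPL1 (0.834), FMC1-LUC7L2 (0.849), MT-RNR2 (0.865) and SPC24 (0.885), replicate 3 in HSPA5 (0.923) and SIRT7 (0.975), and replicate 4 in HDAC8 (0.868).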

How the results depend on the processing

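Over the 138 genes described, 2630 comparisons with an alternative either kept a call and its direction or had no call in both settings, where the sign could still change, 38 gained and 50 lost the call with the direction kept, and 17 had the opposite sign with a call in at least 1 of the 2 settings, and of the counts per list 201 moved by over 1.5 times and 1079 did not. The number of genes called was 9324, and was 4580 (2686 higher, 1894 lower) with KDAC6H216A replicate 1 included, 5333 (2896 and 2437) with all groups in one fit and 2652 (1798 and 854) with an absolute log2 fold change of at least 1. Scaled by total counts alone, 7555 were higher and 2295 lower. Leaving out each library in turn gave 8324 to 8880 genes, 4007 to 4217 higher and 4281 to 4663 lower, an HDAC6 log2 fold change of 1.45 to 1.64 and a difference in mitochondrial rRNA share of -14.4 to -13.4 percentage points, which was -10.5 (exact permutation p = 0.0571) with replicate 1 of KDAC6H216A. DESeq2 called 8476 genes.

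Log2 fold changes that turned under total-count scaling, with a call in at least 1 of the 2 settings, were CD44 0.26, CLU 0.26, COL4A2 0.30, COX7C 0.26, HDAC9 0.027, HSPD1 0.19, MAP4 0.23, PKM 0.22, PLAU 0.28, RPL13A 0.27, RRM2 0.26, SIRT7 0.29 and STAT2 0.28, where the median of all genes was 0.32. After the correction for GC content and length, HDAC10 was at -0.11 and HDAC2 at -0.20.

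Deviations of same-numbered libraries correlated at -0.0018 (replicate 2) and 0.033 (replicate 3), and with KDAC6H216A replicate 1 in place 1 of 3 Tubastatin A libraries correlated best with its own number, so the numbers were not taken to pair the libraries. With the replicate block 7971 genes were called, with the block and the GC and length correction 2949 were higher (HDAC10 -0.22), and with the block and replicate 1 of KDAC6H216A 1719 were called, 1091 higher and 628 lower (HDAC10 -0.0088). The treated libraries held the largest totals, and with every library thinned to the smallest total 8471 genes were called. Genes at a few counts in the smaller libraries could not be ranked by their fold. The causes were not tested.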
